A study of Mus musculus with 6 samples.

Results

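Ubiquitin-conjugating enzymes, the E2 enzymes of the ubiquitin system, were examined in MIN6 cells after a reduction of the homeobox factor Hlxb9. Members were all genes whose symbol in the platform annotation begins with Ube2, read from probe sets with 1 symbol. The rule gave 33 genes and 81 probe sets, out of 18193 genes and 45037 probe sets. It used no measured difference. Each gene was represented by its brightest probe set, the one with the highest mean over the 6 arrays, and every other probe set was checked for direction. Of the 33 genes, 9 have 1 probe set and 24 have several, up to 7 for Ube2d3. No filter on dim signal was applied, so all 33 were tested, although 4 of them (Ube2u, Ube2l6, Ube2ql1 and Ube2d2b) lay below 5.16 log2, the median of all probe sets. Most belong to the E2 family, inactive variants included, while Ube2d-ps is a pseudogene and Ube2cbp, now also called Ube3d, is a ubiquitin ligase named for its binding to Ube2c.

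Ubiquitin is attached to proteins by a relay. An E1 enzyme activates it, an E2 enzyme carries it as a thioester on a catalytic cysteine, and an E3 ligase brings the loaded E2 to the substrate. The E2 largely decides which kind of ubiquitin chain is built, and some E2 enzymes carry other modifiers such as NEDD8 and ISG15. In the beta cell the system removes misfolded proinsulin from the endoplasmic reticulum and degrades cyclins during division.

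MIN6 cells derive from a mouse insulinoma and serve as a model of the beta cell. All cultures were nucleofected with the further use of a lipid reagent, 3 with a scrambled negative control siRNA and 3 with an siRNA against mouse Hlxb9 (gene symbol Mnx1), and RNA was taken 72 hours later. The Hlxb9 samples put on arrays were those with over 75% less Hlxb9 protein by western blot, so they were chosen by that outcome. The labels call the samples sorted cells without naming a gate. Both groups come from 1 cell line, a single Hlxb9 siRNA reagent is named, and no untransfected cells were analysed here. Arrays are numbered 1 to 3 within each group. Separate transfections are described for the study as a whole, and p-values measure the spread between these arrays, whatever its source.

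Values are log2 RMA signals, for which 1 unit is a 2-fold change of signal. Array medians lay between 5.08 and 5.20. Control replicate 3 stood apart from the other arrays. Its correlations with them were 0.988 to 0.991, and the 3' minus 5' difference of its Gapdh control probe sets was 2.13 log2, against 0.65 to 0.78 elsewhere. Mnx1 transcript, the target, averaged 7.70 ± 0.17 with control siRNA and 7.41 ± 0.13 with Hlxb9 siRNA (SD, n = 3), a difference of -0.29 ± 0.13 log2 (SE) that did not pass (limma adjusted p = 0.659). Of 10 measured beta cell identity genes 0 lay below the median of all probe sets, with Ins2 at 13.85 ± 0.02 in controls. Of 15 genes of other cell types 9 lay below it, while the alpha cell hormone Gcg (13.00 ± 0.14) and the delta cell hormone Sst (13.12 ± 0.19) were bright.

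After Hlxb9 siRNA the signal of Ube2w, the E2 that attaches ubiquitin to the free N terminus of proteins, was lower by 0.70 log2, and that of Ube2s, the chain-extending E2 of the anaphase-promoting complex, was higher by 0.56. These were the largest differences in either direction among the 33 genes on their representative probe sets. Most other members differed little: 24 of 33 lay within 0.2 log2 of 0, 72.7%, where 72.5% of all genes did. Higher and lower members were nearly balanced, 16 and 17, with a median difference of -0.0074 log2 against 0.0023 over all genes. The middle of the distribution ran from -0.09 (lower quartile) to 0.12 (upper quartile), against -0.12 and 0.12 over all genes.

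Limma called 0 of the 33 genes at an adjusted p of 0.05, as it called 0% of all genes (smallest adjusted p among Ube2 genes 0.645, two-sided, adjusted over all 45037 probe sets). At an unadjusted p of 0.05 there were 2 Ube2 genes, 6.06% against 7.95% of all genes. Of these Ube2s was higher, as were 4.21% of all genes, and Ube2w lower, as were 3.74%. Values of the 2 groups did not overlap for 5 genes that were higher, 15.2% against 9.55% of all genes, and for 1 that was lower, 3.03% against 7.75%. Without control replicate 3 these counts were 9 and 2, against 20.8% and 11.5% of all genes. The 95% intervals of the differences lay inside a 2-fold change either way for 30 of the 33 genes (90.9%, against 97.9% of all genes) and inside a 1.5-fold change for 26 (78.8% against 77.4%). In bulk RNA, fewer cells of a kind and less RNA per cell cannot be told apart.

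**Figure D1:**
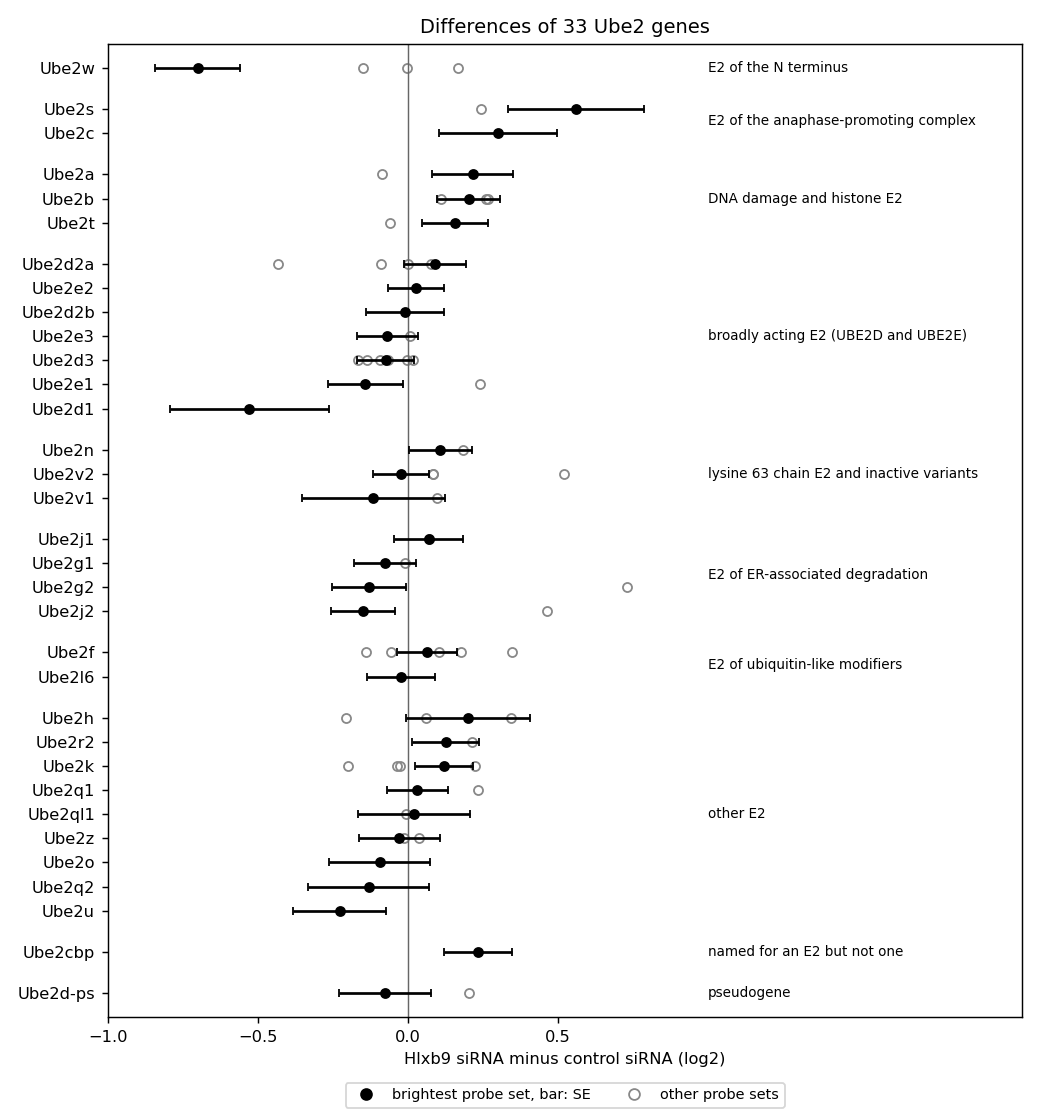
Difference between Hlxb9 siRNA and control siRNA (log2, horizontal axis) for the 33 Ube2 genes, grouped by role. Black points are the brightest probe set of each gene with limma's moderated SE (n = 3 per group) and open points are its other probe sets. Ube2w stands lowest at -0.70 with its other probe sets between -0.15 and 0.17, and Ube2s and Ube2c lie to the right of 0 at 0.56 and 0.30.

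Ube2w is unusual among E2 enzymes in modifying the amino group at the start of a protein rather than a lysine side chain. On its brightest probe set, 1452054_at, control arrays 1, 2 and 3 read 10.34, 10.26 and 10.64. Hlxb9 siRNA arrays 1, 2 and 3 read 9.57, 9.68 and 9.89. Every Hlxb9 siRNA array lay below every control array, and control replicate 3 was the highest of all. Group values were 10.41 ± 0.20 and 9.71 ± 0.16 (SD, n = 3), a difference of -0.70 ± 0.14 log2 (SE, 95% interval -1.03 to -0.37), or a change of -38.5% in signal. Within arrays of the same number the differences were -0.77, -0.57 and -0.75. Groups that do not overlap give 3 lower pairs under any pairing, so this adds nothing to the non-overlap. Limma's adjusted p was 0.645, and the exact two-sided permutation p was 0.1, the smallest that 3 against 3 arrays can give. Leaving out any array left the difference between -0.79 and -0.59.

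The other 3 probe sets of Ube2w did not follow it. Probe set 1426398_at read 9.28, 8.98 and 8.64 in controls and 8.59, 8.88 and 8.99 after Hlxb9 siRNA. Its groups overlapped, with a difference of -0.15 ± 0.18 (SE). Probe set 1457544_at differed by 0.17 ± 0.11 and 1443188_at by -0.0023 ± 0.14, the latter below the median of all probe sets. The mean of the 4 probe sets differed by -0.17 (limma adjusted p = 0.678).

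Limma with array weights, which count arrays less where they fit their group mean poorly, called Ube2w lower at -0.58 (adjusted p = 0.0333). This was 1 of 33 Ube2 genes, while 1.02% of all genes were called lower in that fit and 1.48% higher. The weights were 4.46 for control replicate 2, 2.91 for Hlxb9 siRNA replicate 2 and 0.20 to 0.79 for the other 4 arrays. With weights and any of the 6 arrays left out, the adjusted p of Ube2w was between 0.0856 and 0.931.

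**Figure D2:**
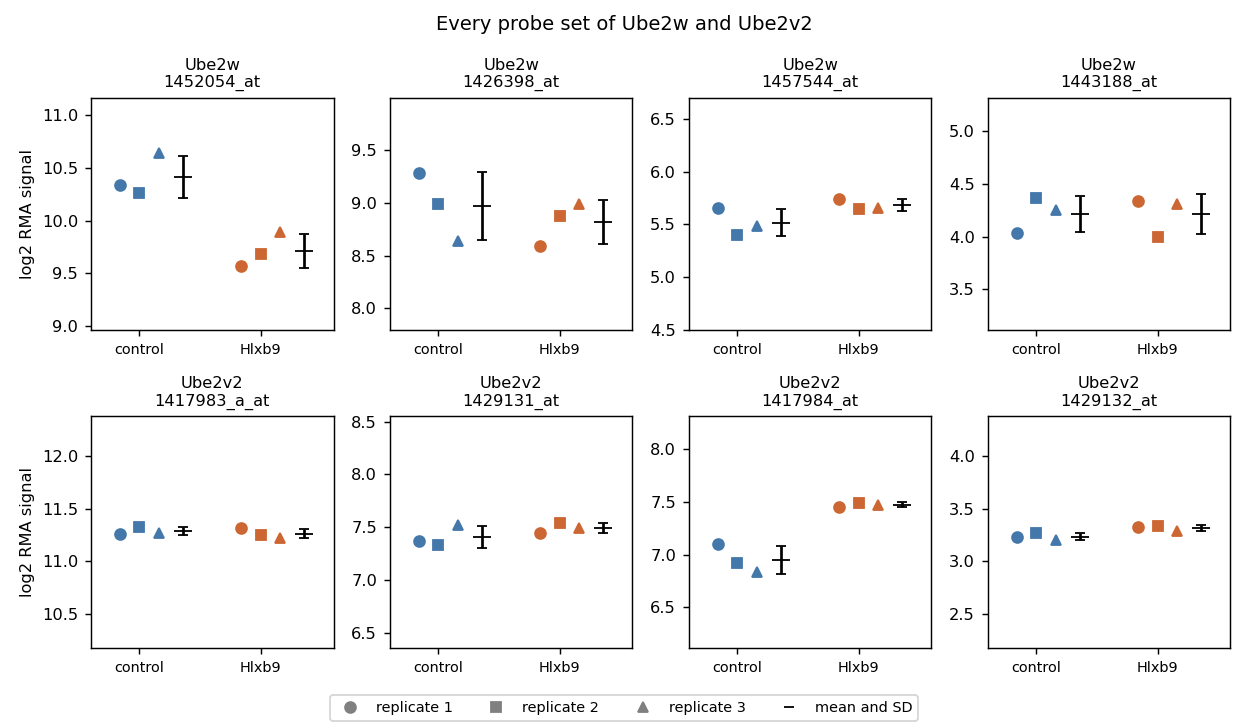
Log2 RMA signal on each array for all 4 probe sets of Ube2w (top) and of Ube2v2 (bottom), in order of mean signal, with mean and SD (n = 3) beside each group. Every vertical axis spans the same range of log2 units. For each gene the groups separate widely on 1 probe set (1452054_at and 1417984_at), and the remaining panels show differences between -0.15 and 0.17.

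Ube2c and Ube2s work in sequence on the anaphase-promoting complex, the ligase that destroys cyclin B and securin at the end of mitosis: Ube2c places the first ubiquitins and Ube2s extends the chain. Both genes were read higher after Hlxb9 siRNA, and both differences depended on control replicate 3. Ube2s read 11.33, 11.70 and 10.72 on control arrays 1, 2 and 3 and 11.79, 11.80 and 11.85 on Hlxb9 siRNA arrays 1, 2 and 3. The Hlxb9 siRNA arrays were close together and above all controls, and control replicate 3 was low. The difference was 0.56 ± 0.23 log2 (SE, limma adjusted p = 0.653) and 0.30 without control replicate 3. The dim second probe set of Ube2s differed by 0.24 ± 0.11. The brightest Ube2s probe set carries the _s_at suffix, which marks probes shared by several transcripts.

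Ube2c, on its only probe set, read 11.71, 11.73 and 11.02 on control arrays 1, 2 and 3. Hlxb9 siRNA arrays 1, 2 and 3 read 11.72, 11.74 and 11.91. Control arrays 1 and 2 were almost level with Hlxb9 siRNA arrays 1 and 2, and the groups overlapped. The difference was 0.30 ± 0.20 log2 (SE, 95% interval -0.15 to 0.76, limma adjusted p = 0.713, exact two-sided permutation p = 0.2), and 0.07 without control replicate 3. Within arrays of the same number it was 0.01, 0.0026 and 0.89. The part of array quality in these values was not tested.

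Other genes of division were set beside Ube2c and Ube2s on control replicate 3. On that array Ube2c stood 0.47 below its control mean (-0.47) and Ube2s 0.53 below (-0.53). Of 15 genes of S phase and mitosis, 5 had their lowest control value there and 8 their highest, with deviations from -0.44 to 0.54. Between groups this list had 8 genes higher and 7 lower, with a median of 0.0010 log2 against 0.0023 over all genes. Birc5 (survivin) differed by 0.16, Ccnb2 (cyclin B2) by 0.13 and the checkpoint kinase Bub1 by -0.16.

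**Figure D3:**
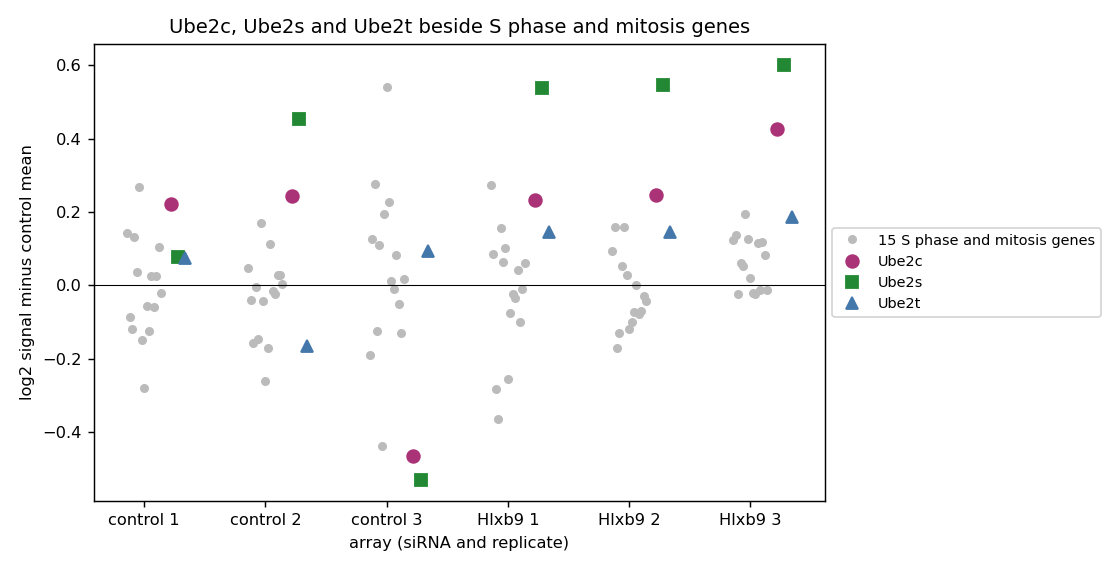
Log2 signal minus the gene's control mean (vertical axis) on each of the 6 arrays for Ube2c, Ube2s and Ube2t and for 15 S phase and mitosis genes (grey). On control replicate 3 Ube2c and Ube2s stand at -0.47 and -0.53, below all grey points there, which run from -0.44 to 0.54.

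Subunits of the anaphase-promoting complex and its activators, the ligase that Ube2c and Ube2s serve, were higher in 9 of 14 genes (64.3%, against 50.6% of all genes) and lower in 5, with a median of 0.07 log2. Without control replicate 3, 13 of 14 were higher (92.9%, against 56.7% of all genes), with a median of 0.10 against 0.027 over all genes. Limma called 0 of 14, with 0 at an unadjusted p of 0.05. The activator Fzr1 (Cdh1) differed by 0.28 ± 0.13 (SE), the subunit Cdc27 by -0.20 ± 0.11 and the RING subunit Anapc11 by 0.17 ± 0.11. The other activator, Cdc20, differed by 0.0073. Further probe sets ran from -0.06 to 0.05 for Cdc27, 0.01 to 0.16 for Anapc11 and -0.32 to 0.08 for Cdc20.

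The promoter of Ube2c is shown beside that of Ube2s because both enzymes act on the same ligase while their promoter windows differ in the motifs searched. Sequences are from RefSeq on GRCm38.p6, 250 bases before the annotated start, 5′ to 3′ on the gene's strand. Capitals mark matches on either strand to CCAAT, the site of the factor NF-Y, or to TTTGAA, the cell cycle homology region bound by the complex that represses mitotic genes in resting cells. The Ube2c window is chr2:164769679-164769928 on the plus strand and the Ube2s window is chr7:4812341-4812590 on the minus strand.
Ube2c: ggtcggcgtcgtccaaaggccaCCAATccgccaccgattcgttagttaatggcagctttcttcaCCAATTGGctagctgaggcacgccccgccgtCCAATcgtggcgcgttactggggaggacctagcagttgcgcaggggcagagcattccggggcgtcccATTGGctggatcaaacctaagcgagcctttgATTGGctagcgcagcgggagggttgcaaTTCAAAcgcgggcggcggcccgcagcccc
Ube2s: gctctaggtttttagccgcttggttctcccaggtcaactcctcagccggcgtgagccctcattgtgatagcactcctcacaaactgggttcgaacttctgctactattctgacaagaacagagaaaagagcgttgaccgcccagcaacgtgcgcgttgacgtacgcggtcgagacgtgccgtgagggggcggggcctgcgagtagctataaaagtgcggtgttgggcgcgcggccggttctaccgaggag
The Ube2c window held 6 CCAAT matches, 3 on each strand, of which a pair share bases, and 1 TTTGAA match on the opposite strand whose first base lies at -29 from the start. CCAAT occurred in 33.8% of 32851 promoter windows of this length and TTTGAA in 16%, and 19 windows held 6 or more CCAAT matches. The Ube2s window held neither string of letters, and other forms of these sites were not searched. Of the 33 genes 27 had a window in the table, 36 windows in all. CCAAT was in windows of 7 genes (Ube2c, Ube2d2b, Ube2d3, Ube2e1, Ube2f, Ube2t and Ube2u) and TTTGAA in those of 4 (Ube2c, Ube2d2b, Ube2f and Ube2z). The homeodomain core TAATTA was in 0 of the 36 windows and 4.84% of all windows. A match describes the letters of a window and not the binding of a factor.

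The 3 E2 enzymes of DNA damage and histone marking were all read higher on their brightest probe set. Ube2b and Ube2a are the mouse forms of yeast Rad6, which modify the sliding clamp PCNA with Rad18 and histone H2B with Rnf20 and Rnf40. Ube2b read 11.40, 11.26 and 11.14 in controls and 11.50, 11.45 and 11.46 after Hlxb9 siRNA, a difference of 0.20 ± 0.11 (SE, limma adjusted p = 0.675). Its groups did not overlap, and the difference was 0.14 without control replicate 3. Its other 3 probe sets differed by 0.11 to 0.27, each with overlapping groups. Without control replicate 3 those differed by -0.04, -0.0074 and 0.11. Ube2a read 11.26, 11.17 and 10.81 against 11.33, 11.24 and 11.32, with overlapping groups, a difference of 0.22 ± 0.14 and 0.08 without control replicate 3. Its other probe set differed by -0.08.

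Ube2t, the E2 of the Fanconi anaemia pathway of crosslink repair, read 9.35, 9.11 and 9.37 in controls and 9.42, 9.42 and 9.46 after Hlxb9 siRNA. The groups were separated by a narrow gap, with a difference of 0.16 ± 0.11 (SE, limma adjusted p = 0.727) and -0.06 on its other, dim probe set. Their ligases differed by 0.14 for Rad18, -0.39 for Rnf20, 0.04 for Rnf40 and 0.18 for Fancl. Without control replicate 3 these differences were 0.01, -0.31, -0.06 and 0.27 in the same order. The other probe sets of Rad18 ran from -0.14 to 0.27. Ube2cbp, the ligase named for Ube2c, read 9.19, 9.50 and 9.40 in controls and 9.56, 9.61 and 9.62 after Hlxb9 siRNA, without overlap, a difference of 0.23 ± 0.11 (adjusted p = 0.667).

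**Figure D4:**
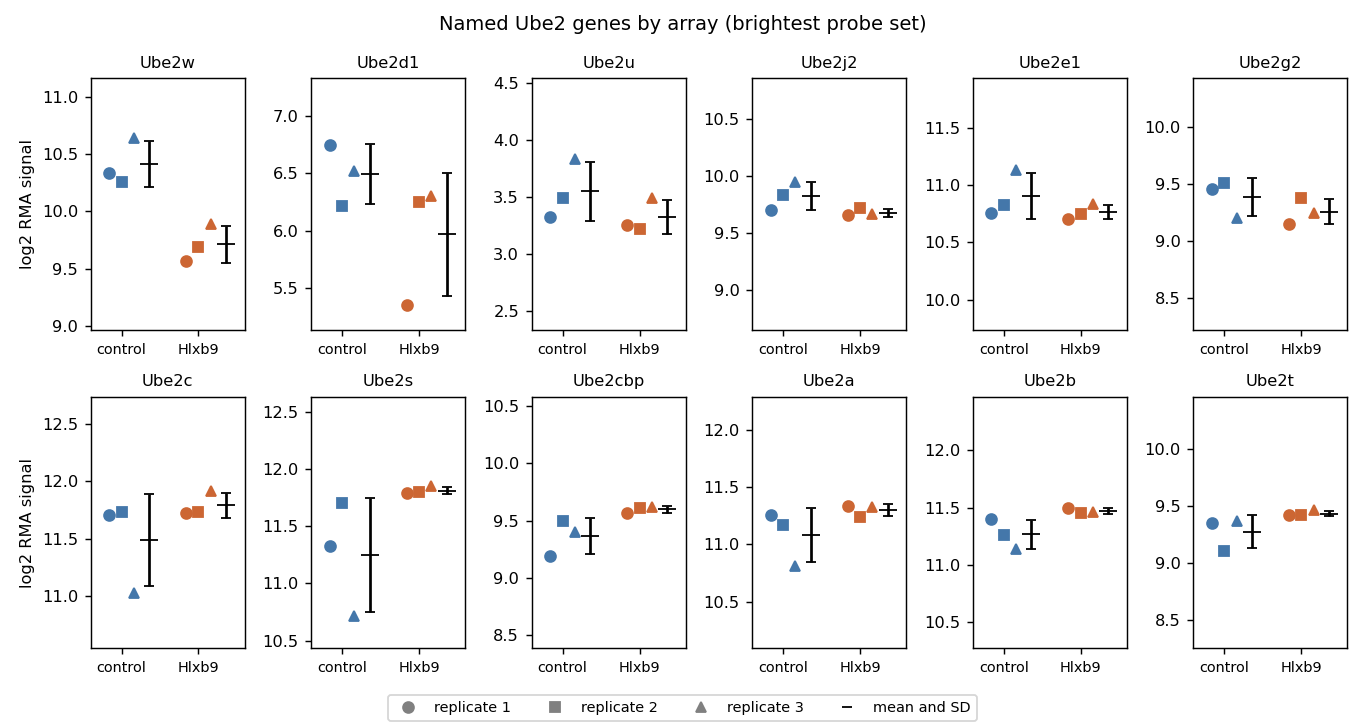
Log2 RMA signal on each array for Ube2w, Ube2c and the 5 other Ube2 genes per direction with the smallest unadjusted p, on the brightest probe set, with mean and SD (n = 3). Every vertical axis spans the same range of log2 units. Ube2w is the one gene of the top row whose groups do not overlap, and the Hlxb9 siRNA points of Ube2s lie between 11.79 and 11.85 while its controls run from 10.72 to 11.70.

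The broadly acting UBE2D and UBE2E enzymes, which load ubiquitin for many RING ligases, were higher in 2 of 7 genes and lower in 5, with a median of -0.07 log2. Ube2d1 had the largest difference of them and rested on 1 array. Its controls read 6.75, 6.22 and 6.52, and Hlxb9 siRNA arrays read 5.35, 6.25 and 6.30, so that only Hlxb9 siRNA replicate 1 lay below all controls. The difference was -0.53 ± 0.26 (SE, limma adjusted p = 0.668), and -0.22 without that array. Ube2e1 read 10.76, 10.82 and 11.13 in controls and 10.71, 10.75 and 10.83 after Hlxb9 siRNA, a difference of -0.14 that was -0.03 without control replicate 3, with the other probe set at 0.24.

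The remaining members of this class differed by -0.07 (Ube2d3 and Ube2e3), -0.0074 (Ube2d2b, a dim probe set), 0.03 (Ube2e2) and 0.09 (Ube2d2a). Ube2d3 has the most probe sets, and 6 of its 7 were lower, between -0.17 and -0.00089, with the last at 0.02. For Ube2d2a the probe set 1416476_a_at averaged 10.17 ± 0.21 with control siRNA and 9.74 ± 0.18 with Hlxb9 siRNA (SD, n = 3), a difference of -0.43 ± 0.15 without overlap (limma adjusted p = 0.645). The other 4 of its probe sets lay between -0.09 and 0.09. UBE2D transcripts are closely alike, so a probe set can take signal from more than 1 of them. The related pseudogene Ube2d-ps differed by -0.08 on its brighter probe set and by 0.20 on the other.

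Ube2n, with the catalytically inactive partners Ube2v1 and Ube2v2, builds the ubiquitin chains used in inflammatory signalling and DNA repair. Ube2n differed by 0.11 ± 0.10 (SE) and by 0.18 on its other probe set. Ube2v1 read 10.56, 10.59 and 11.47 in controls and 10.89, 10.74 and 10.66 after Hlxb9 siRNA: control replicate 3 was the highest array, the difference was -0.11 with it and 0.18 without it, and both probe sets of the gene were highest on that array.

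Ube2v2 differed by -0.02 ± 0.09 on its brightest probe set. Its probe set 1417984_at read 7.10, 6.92 and 6.83 in controls and 7.45, 7.49 and 7.48 after Hlxb9 siRNA. There the groups did not overlap and the difference was 0.52 ± 0.11 (SE), with an adjusted limma p of 0.645. The remaining Ube2v2 probe sets differed by 0.09 and 0.08.

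Of the 48 probe sets beside the representative ones, 6 had an unadjusted limma p under 0.05: these of Ube2v2 and Ube2d2a, and 1 each of Ube2j2, Ube2f, Ube2h and Ube2q1, those of the last group all higher. Over all 81 Ube2 probe sets there were 6 higher, 7.41% against 3.86% of all probe sets, and 2 lower, 2.47% against 3.76%. Groups did not overlap on 14 that were higher (17.3% against 8.27%) and 5 that were lower (6.17% against 7.29%). Probe sets of a gene share its transcript and are not independent. Array weights called 3 Ube2 probe sets higher (1.29% of all), 1430317_at of Ube2j2, 1417984_at of Ube2v2 and 1429073_at of Ube2d-ps, and 1 lower (1.23% of all), that of Ube2w.

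Of the 24 Ube2 genes with several probe sets, 17 had differences in both directions, 70.8% against 59.3% of 9010 such genes on the array. In 10 of the 24, at least 1 further probe set pointed the other way from the representative by 0.1 log2 or above. In 7 genes all probe sets went one way over all arrays: Ube2b, Ube2n, Ube2s, Ube2r2, Ube2j1 and Ube2q1 higher and Ube2g1 lower. Without control replicate 3 the probe sets of Ube2b no longer went one way.

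The E2 enzymes of degradation at the endoplasmic reticulum were lower in 3 of 4 genes, with a median of -0.10 log2. Ube2j2, which sits in the reticulum membrane, read 9.70, 9.83 and 9.95 in controls and 9.65, 9.72 and 9.66 after Hlxb9 siRNA, with overlap and a difference of -0.15 ± 0.11 (SE, limma adjusted p = 0.733), -0.09 without control replicate 3. Its dim second probe set read 3.61, 3.32 and 3.62 in controls and 4.13, 4.11 and 3.71 after Hlxb9 siRNA, a difference of 0.46 ± 0.15 in the opposite direction.

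Ube2j1, the other membrane-anchored member, differed by 0.07 on both of its probe sets. Ube2g1 and Ube2g2 correspond to yeast Ubc7. Ube2g1 differed by -0.07 and -0.0097 on its probe sets. Ube2g2 read 9.45, 9.50 and 9.20 in controls and 9.15, 9.38 and 9.24 after Hlxb9 siRNA, a difference of -0.13 with overlapping groups. Its second probe set differed by 0.73 ± 0.56, reading 5.04 on control replicate 3 and between 7.17 and 7.39 on the other arrays. The ligase Syvn1 (Hrd1), which works with these enzymes, differed by -0.08 ± 0.11.

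Among E2 enzymes of other modifiers, Ube2f carries NEDD8 to the cullin partner Rnf7 and Ube2l6 carries ISG15, an interferon-induced modifier. Ube2f, on an _x_at probe set that can bind related sequences, differed by 0.07 ± 0.10 (SE), with others between -0.14 and 0.35. Ube2l6 read 3.46, 3.39 and 3.29 in controls and 3.50, 3.23 and 3.35 after Hlxb9 siRNA, below the median of all probe sets in every array, with a difference of -0.02. Of 10 interferon response genes, 6 stood higher and 4 lower; their median was 0.11 log2 against 0.0023 over all genes. Without control replicate 3, 9 of the 10 were higher (90.0% against 56.7%), with a median of 0.07 against 0.027. Limma called 0 of them without array weights. At an unadjusted limma p under 0.05 there were 3 (30.0%, against 7.95% of all genes). The list was chosen with earlier results of these data known. All 3 were higher: the RNA sensor Ifih1 at 1.02, Ifit3 at 0.48 and the ISG15 protease Usp18 at 0.34. Array weights called Ifih1 (limma adjusted p = 0.0245) and Ifit3 (0.0428) higher, where 1.48% of all genes were. Uba7, the E1 of ISG15, differed by -0.04.

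The other E2 enzymes lay between -0.23 and 0.20. Ube2u read 3.32, 3.49 and 3.83 in controls and 3.26, 3.22 and 3.49 after Hlxb9 siRNA, a dim signal with overlapping groups, a difference of -0.23 ± 0.15 (SE) and of -0.08 without control replicate 3. Ube2h, which serves the CTLH ligase, differed by 0.20 ± 0.21 and by -0.04 without control replicate 3, and its other probe sets ran from -0.21 to 0.35. Ube2k, an enzyme that builds degradation chains, differed by 0.12 ± 0.10 without overlap between groups, though its 4 other probe sets ran from -0.20 to 0.22. Ube2r2, of the Cdc34 type that works with cullin ligases, differed by 0.13. Ube2z, which takes ubiquitin from the E1 Uba6, differed by -0.03, Ube2o, an E2 with ligase activity of its own, by -0.09, Ube2q1 by 0.03, Ube2q2 by -0.13 and Ube2ql1 by 0.02.

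The 33 genes varied among arrays of a group slightly less than genes in general, with a median pooled SD of 0.12 log2 against 0.16. The difference between these medians was not tested, and genes were not matched for signal level. Of the 33 representative probe sets 4 lay below the median of all probe sets, against 6848 of the 18193 genes. Control replicate 3 was the array farthest from the gene's median for 16 of the 33 (48.5%, against 42.2% of all genes), Hlxb9 siRNA replicate 1 for 7 and Hlxb9 siRNA replicate 3 for 1. Within arrays of the same number, all 3 differences were positive for 9 genes (27.3% against 19.1% of all genes) and negative for 6 (18.2% against 16.5%). With control replicate 3 left out, 19 of 33 were higher (57.6% against 56.7%) and the median was 0.03 in both the Ube2 genes and all genes.

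In the other lists of the ubiquitin pathway, limma without array weights called 0 genes, and with array weights it called Aktip lower (adjusted p = 0.0401) and Cbl higher (0.0475), where 1.02% and 1.48% of all genes were called. Of 7 measured E1 enzyme genes (10 listed), 3 stood higher and 4 lower. Their median was -0.0077 log2, with 0 at an unadjusted p of 0.05. Without control replicate 3 all 7 were higher (56.7% of all genes were), with a median of 0.07 against 0.027 over all genes. Atg7, the E1 of autophagy, differed by 0.18 ± 0.12 (SE), Uba6 by 0.13 and Mocs3 by 0.08. The 6 measured modifier genes (13 listed) split evenly, 3 in each direction, around a median of 0.06. The autophagy conjugate Atg12 differed by 0.27 ± 0.13, Nedd8 by 0.20 ± 0.12 and Sumo3 by 0.16.

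Genes with the E2 fold under other names were higher in 3 of 8 and lower in 5, with a median of -0.10 log2. Without control replicate 3, 4 of 8 were higher (50% against 56.7% of all genes), with a median of -0.08 against 0.027. With all arrays, 2 had an unadjusted limma p under 0.05, both lower (25%, against 3.74% of all genes lower). This list too was chosen with earlier results of these data known. Aktip, an inactive E2 variant of vesicle transport, averaged 9.80 ± 0.11 with control siRNA and 9.29 ± 0.07 with Hlxb9 siRNA (SD, n = 3), a difference of -0.50 ± 0.11 (SE), with other probe sets from -0.26 to 0.19. Birc6, a giant E2 that restrains apoptosis, differed by -0.30 ± 0.10, with others from -0.59 to 0.17, and Atg10 by -0.26 ± 0.13. Cdc34, the E2 of cullin ligases, differed by 0.18.

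Ligases that work with Ube2 enzymes were higher in 18 of 25 measured (28 listed), 72.0% against 50.6% of all genes, with a median of 0.09 log2 against 0.0023. Without control replicate 3, 15 of 25 were higher, 60.0% against 56.7% of all genes, with a median of 0.05 against 0.027. At an unadjusted limma p of 0.05, 1 was higher and 1 lower, 8% against 7.95% of all genes. Cbl, a ligase of receptor kinases, differed by 0.53 ± 0.16 (SE), against -0.25 and -0.19 on its remaining probe sets. Rnf20 differed by -0.39 ± 0.15, with others from -0.28 to 0.08, and Ube3a, the ligase of Angelman syndrome, by 0.22 ± 0.10, with others from -0.32 to 0.06. Beta cell identity genes had a median of -0.03, 3 of 10 higher, with G6pc2 at -0.23, Pdx1 at -0.11 and Nkx2-2 at 0.11. Markers of other cell types had a median of -0.03, 6 of 15 higher, with the macrophage gene Cd68 at 0.54 ± 0.13, Vim at -0.50 and Pecam1 at -0.28. Of these 15, Cd68 had an unadjusted limma p under 0.05, 6.67% against 7.95% of all genes. Their mean level ran from 5.37 to 5.47 in controls and 5.31 to 5.43 after Hlxb9 siRNA. Ptprc, the defining marker of immune cells, read 3.09 ± 0.27 and 3.19 ± 0.12 (SD, n = 3), below the median of all probe sets. The part of other cell types in the Ube2 values was not tested.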

How the data were processed

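Affymetrix mouse expression arrays of 6 MIN6 samples were hybridised with biotinylated cRNA from 6 ug total RNA, per the labels. The authors deposited log2 probe set signals. Per the submitters' processing notes the tools were RMA, which corrects background, normalizes and summarises probes, and Partek. Versions and settings: not given in the sources used here. No genome build or read depth applies, and the number of arrays limits precision.

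The 64 maker's control probe sets were left out of 45101. Of the remainder 34945 have 1 symbol, 932 several and 9160 none in the platform annotation. Of the probe sets with 1 symbol, 34741 had an Entrez identifier that matched RefSeq (GRCm38.p6), and 0 symbols differed. No filter on low values was used, so all 33 Ube2 genes were tested. Groups were compared with limma 3.58.1 (R 4.3.3, lmFit and eBayes, no covariate, two-sided, Benjamini-Hochberg over 45037 probe sets, adjusted p of 0.05), tested on simulated data. Differences are Hlxb9 siRNA minus control siRNA with limma's moderated SE, and folds are on the log2 signal scale. The members and gene lists were chosen with earlier results of these data known. Values on each array are given for Ube2w, Ube2c and 5 further Ube2 genes per direction by unadjusted p, and up to 3 genes per list by unadjusted p. Other genes and probe sets named were chosen after their values were seen.

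Deviations from group means correlated between arrays of the same number at 0.155, 0.165 and 0.202, all over 0.1, so same-numbered arrays were treated as pairs in an alternative fit. The pairing comes from the values, and the labels state no shared day. Alternatives were the replicate block, centring, repeated quantile normalization, an offset of 32, a filter on dim probe sets, a trended robust prior, array weights, leaving out each array, the mean of probe sets and plain _at probe sets. Array weights with the block or without each array, and non-overlap and the gene lists' counts and medians without control replicate 3, were chosen after seeing the data.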

Additional observations from a re-analysis of the deposited data

How the results depend on the processing

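Ube2 genes called numbered 0 under every alternative run except array weights, with 1 (Ube2w), and 1 again with array weights and the replicate block together. Ube2w was -0.58 with array weights (limma adjusted p = 0.0333) and -0.62 with weights and block (adjusted p = 0.0248). Ube2w kept its direction in all 22 alternatives, as did Ube2d1, Ube2c, Ube2s, Ube2a, Ube2b, Ube2t and Ube2cbp. Ube2u kept its direction in the 21 that could be run. Much of this was fixed in advance. Where groups do not overlap, leaving out or weighting arrays cannot reverse the sign. The block, the trended prior and the filter on dim probe sets leave the difference itself unchanged. With the mean of probe sets Ube2w stood at -0.17. With the replicate block alone Ube2w had limma's adjusted p = 0.478, and the block changed no call. Ube2 genes at an unadjusted p of 0.05, 2 as reported, numbered 4 with the offset, with array weights and with weights and block, 1 with the mean of probe sets, 1 to 3 with one array left out, and 2 to 4 with weights and one array left out. The Ube2 median difference, -0.0074, moved by more than 0.0095, a limit set from an SD of array medians, in 18 of the 22 alternatives. This limit is narrow beside the values on single arrays. There the median deviation of Ube2 genes from their control means ran from -0.025 to 0.023. The median difference was -0.060 after centring, 0.0040 after repeated quantile normalization, 0.026 without dim probe sets and 0.050 with the mean of probe sets. It was 0.029 on plain _at probe sets, 0.062 with array weights and 0.069 with weights and block. With 1 array left out it ran from -0.035 to 0.033, including a smaller move to -0.016 without Hlxb9 siRNA replicate 2. With weights and control replicate 1, 2 or 3 left out it was -0.037, 0.018 and 0.042. With weights and Hlxb9 siRNA replicate 1, 2 or 3 left out it was 0.055, 0.018 and 0.056. The median difference has no settled sign. With the mean of probe sets, Ube2e1 stood at 0.05, Ube2g2 at 0.30 and Ube2j2 at 0.16, and on plain _at probe sets Ube2j2 at 0.46, all higher where their brightest probe sets were lower. Groups did not overlap for 6 Ube2 genes as reported and for 11 without control replicate 3, where fewer arrays are compared. The cause of the other changes was not tested.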

Other observations

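Ube2l3, the E2 of the Parkin and HOIP class of ligases, is read on this array by 4 probe sets that the annotation assigns to Ube2l3 together with several predicted genes, so none can be named for Ube2l3 alone. They differed by -0.08, 0.10, 0.19 and 0.13 log2 between Hlxb9 siRNA and control siRNA. The third of these read 12.01, 12.04 and 11.84 in controls and 12.20, 12.13 and 12.15 after Hlxb9 siRNA, without overlap between groups (limma adjusted p = 0.679). Control replicate 3 gave the lowest control value on all 4.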
